A study of Mus musculus with 51 samples.

Results

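Collagens are the main structural proteins of the extracellular matrix, and each gene treated here encodes 1 chain of a collagen molecule. The genes were taken by name, as the protein-coding mouse genes called Col, a number, a and a number, and were kept where at least 10 counts were present in at least 5 libraries. This left 40 of the 44 collagen chain genes in the counts table, which holds 53801 genes in all. They were 11 fibril-forming (fibrillar) chains, 8 chains of fibril-associated collagens (FACIT), 6 type IV chains of basement membranes, 5 type VI chains, 3 chains of the type VIII and X networks, 2 multiplexins (Col15a1 and Col18a1), 2 transmembrane chains (Col17a1 and Col23a1) and 3 others (Col7a1, Col26a1 and Col28a1). Col6a4, with 10 counts in 5 libraries, Col24a1, in 6, and Col14a1, in 8, were just inside the threshold. Col6a5, with 2 such libraries, and Col13a1, Col22a1 and Col25a1, with 0, were outside.

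The 51 RNA libraries came from the mouse line C3H/10T1/2-SAM, mesenchymal cells able to turn into fat cells. All of them carried dCas9-VP64 and MS2-P65-HSF1, the parts of a system that switches on an endogenous gene chosen by a guide RNA. They were transfected with 250 ng of plasmid that was an empty vector (EV), carried a guide for Pparg (P), or was a mix of guides for Pparg and for Ybx1 (PY). Pparg encodes the master regulator of fat cell formation, and Ybx1 encodes a protein that binds DNA and RNA. All cells, controls included, also received 5 µM rosiglitazone, a drug that activates PPARG, 48 hours after transfection, which is day 0; the labels do not say whether day 0 RNA was taken before or after the drug. RNA was taken on days 0, 2 and 4, with 5, 6 and 6 EV libraries, 5, 6 and 6 P libraries and 6, 5 and 6 PY libraries. Libraries came from 6 numbered experiments, and the labels do not say more about how separate these cultures were. P and PY were compared with the same EV libraries, so their differences from EV are not independent.

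A collagen chain winds with others of its type into a triple helix. Fibrillar chains (types I, II, III, V, XI and others) assemble into the fibrils that bear load, and FACIT collagens sit on the fibril surface. Type IV forms the mesh of the basement membrane that surrounds each fat cell, type VI forms beaded microfibrils between that mesh and the fibrils, and multiplexins carry heparan or chondroitin sulfate chains next to basement membranes. During fat cell formation the matrix around the cell is known to shift from fibrils toward basement membrane.

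The chains on which most of the results turn are Col15a1 and the 3 abundant type VI chains, and the sequence upstream of each start site is shown so that they can be compared. Windows of 250 bases before the start were taken from RefSeq (GRCm38.p6) for 32 of the 40 genes, and the Col6a1 window was shortened to 126 bases to leave out an annotated exon. The windows lie at chr4:47207762-47208011 on the plus strand for Col15a1, and on the minus strand at chr1:90843972-90844221 for Col6a3, chr10:76726169-76726294 for Col6a1 and chr10:76623631-76623880 for Col6a2. Capitals mark a match to GGGCGG on either strand.
Col15a1: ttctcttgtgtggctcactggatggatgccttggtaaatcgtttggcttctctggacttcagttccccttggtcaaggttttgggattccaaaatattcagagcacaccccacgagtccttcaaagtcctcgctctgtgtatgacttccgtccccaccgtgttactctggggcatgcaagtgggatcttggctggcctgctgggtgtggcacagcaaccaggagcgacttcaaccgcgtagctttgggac
Col6a3: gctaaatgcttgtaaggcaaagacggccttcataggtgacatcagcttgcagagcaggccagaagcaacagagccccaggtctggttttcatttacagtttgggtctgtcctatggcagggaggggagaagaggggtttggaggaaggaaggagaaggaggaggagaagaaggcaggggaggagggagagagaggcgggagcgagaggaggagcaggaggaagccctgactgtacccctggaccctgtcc
Col6a1: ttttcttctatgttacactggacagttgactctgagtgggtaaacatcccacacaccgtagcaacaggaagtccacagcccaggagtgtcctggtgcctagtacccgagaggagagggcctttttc
Col6a2: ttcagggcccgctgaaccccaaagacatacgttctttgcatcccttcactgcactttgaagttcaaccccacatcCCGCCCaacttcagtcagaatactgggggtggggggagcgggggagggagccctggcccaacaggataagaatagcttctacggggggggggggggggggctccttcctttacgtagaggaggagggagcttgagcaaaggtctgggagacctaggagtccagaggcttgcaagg

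Motifs of 5 kinds were searched on both strands, and among the 4 windows only Col6a2 held one. This was a match to GGGCGG, the GC box, which was present in 32.7% of all 32851 RefSeq windows and in 20 of 35 windows of the collagen genes. The CCAAT box was present in 33.8% of all windows and in 12 of the 35, and the TATA box, searched as TATAAA, in 12.4% and in 4. Among these 4 windows that of Col6a3 had the highest share of A or G, 67.2% of its bases. AGGTCA, the core hexamer bound by nuclear receptors such as PPARG, was found in 14% of all windows and in 7 of the 35 collagen windows, none of them among these 4. A direct repeat of that hexamer with 1 base between was found in 11 windows, 0.0335% of all, and in 0 of the collagen windows; an absent match says only that these letters are not in this window.

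Total counts ran from 3381870 to 114566739 per library, with a median of 22366559. The targeted genes followed the labels: Pparg was at 41.7 to 76.6 CPM (counts scaled to 1000000 per library by edgeR) in all EV libraries and at 104.0 to 505.7 CPM in P and PY, and Ybx1 was at 1364 to 2855 CPM in PY against 415.3 to 885.9 CPM in EV and P. The summed level of 10 fat cell markers overlapped between transfections on day 0, and on day 4 EV was separate from P and PY, with 62.7 to 509 CPM in EV on day 4 against 3060 to 12500 CPM in P and 1460 to 14500 CPM in PY. The 11 preadipocyte and fibroblast markers summed to 3360 to 9410 CPM. In contrast, 6 of 7 endothelial, 6 of 7 epithelial and 4 of 6 macrophage markers had a median under 1 CPM. So did 5 of 8 bone and 5 of 8 cartilage markers. No marker was at 0 in all libraries. PY day 4 replicate 4 stood apart: its fat cell markers summed to 1460 CPM against 7230 to 14500 CPM in the other 5 libraries of its group, its 6 smooth muscle markers to 5410 CPM against 120 to 3140 CPM, and its preadipocyte and fibroblast markers to 9140 CPM against 3360 to 6440 CPM. Pparg at 178 CPM and Ybx1 at 1645 CPM were still within the PY range there. Some of this was shared by experiment 4 on day 4: its EV and P libraries had the highest smooth muscle sums of their groups (7200 and 5340 CPM) and the highest preadipocyte and fibroblast sums (9410 and 9080 CPM), and its P library had the lowest fat cell sum (3060 CPM). The calls in PY on day 4 are given with and without this PY library. The smooth muscle sum was mostly Acta2, at a median of 2270 CPM against 48.9 CPM for Smtn, the next highest. The preadipocyte and fibroblast sum was mostly Vim, at a median of 4360 CPM against 582 CPM for Fbn1, the next highest. RNA from mixed cells cannot tell fewer cells of a kind from less RNA per cell.

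The CPM of the collagen genes summed to 1.1% to 3.12% of the scaled total of a library. This is a share of scaled CPM, not of all raw counts. On day 0 the median share was 1.36% in EV, 1.46% in P and 1.35% in PY, and on day 4 it was 2.3%, 2.12% and 2.05%, with ranges that overlapped on every day. Per kilobase of exon (RPKM, which allows levels of different genes to be compared), the type I chains Col1a1 (326 RPKM on average) and Col1a2 (315), the type VI chain Col6a1 (323) and the type III chain Col3a1 (294) were highest. Col4a1 (190), Col5a2 (141) and Col5a1 (101) followed, and Col6a2 was at 100 RPKM. The other type VI chains were lower, with Col6a3 at 35.5 RPKM. The highest FACIT chain was Col12a1 (66.1), the highest multiplexin Col15a1 (12.9), the highest of the VIII and X group Col8a2 (7.15), the highest transmembrane chain Col23a1 (2.98), and the highest of the others Col28a1 (8.17). In all, 7 chains had a mean over 100 RPKM, 20 were between 1 and 100, and 13 were under 1, down to Col6a4 at 0.0116. The 11 chains of highest CPM held 94.0% of the collagen CPM.

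**Figure D1:**
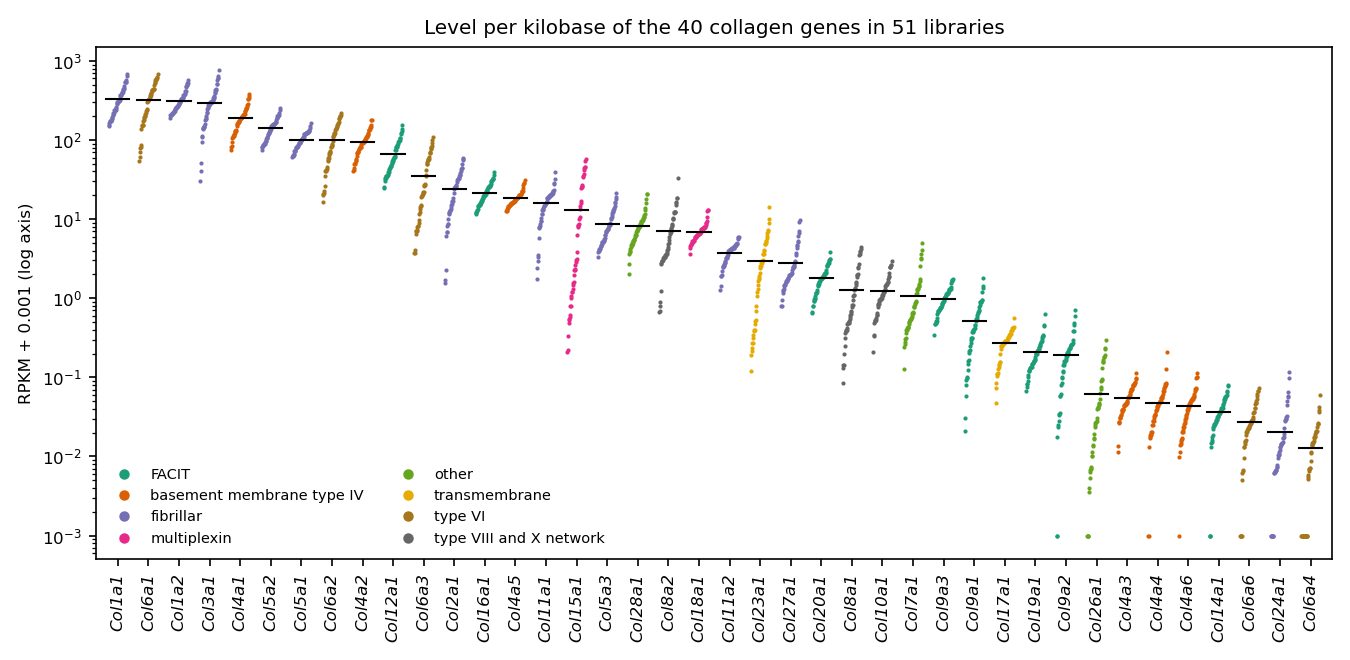
Level of each of the 40 collagen genes, in RPKM plus 0.001 on a log axis, with 1 point per library (51 per gene), a black bar at the mean and colours for the structural class. Col1a1, Col6a1, Col1a2 and Col3a1 lead, with Col1a1 at a mean of 326 RPKM, and Col6a4 is lowest, at 0.0116 RPKM.

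On day 0, 48 hours after transfection, no collagen gene was called between the transfections, which does not show that their levels were equal. edgeR's quasi-likelihood test with Benjamini-Hochberg adjustment over 17015 genes, of which 37 were collagens (Col6a4, Col24a1 and Col14a1 were removed by its filter on low counts), called 0 of 37 for P against EV, where 0.00588% of all genes passed. It called 0 of 37 for PY against EV, where 0.047% of all genes passed. At an unadjusted p under 0.05 there were 0 collagen genes in either comparison (1.42% and 2.1% of all genes), and 2 and 4 when the experiment was added to the model as a replicate block (4.95% and 6.17% of all genes). DESeq2 also called 0 in both.

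Type VI collagen is built from 3 different chains, of which Col6a3 encodes the longest, also the source of the secreted fragment endotrophin. Col6a3 (ENSMUSG00000048126, chromosome 1, 90765923 to 90843971, minus strand) was higher in P and PY than in EV on days 2 and 4. In EV it was at 44.4, 78.2, 84.4, 95.3 and 98.2 CPM on day 0, and its lowest, median and highest CPM were 98.9, 201.0 and 333.7 on day 2 and 242.7, 318.2 and 622.7 on day 4. In P it was at 44.4, 87.5, 106.2, 138.9 and 147.8 CPM on day 0, at 248.3, 635.0 and 856.2 CPM on day 2 and at 497.2, 819.5 and 1314 CPM on day 4. In PY it was at 48.2, 100 and 182.9 CPM on day 0, at 260.0, 262.7, 599.0, 693.9 and 1082 CPM on day 2 and at 320.5, 949.0 and 1212 CPM on day 4. The groups overlapped on each day, but within every experiment the P library was above the EV library on both later days. On day 2, the fold over EV was 2.81 in P (95% interval 1.74 to 4.52, log2 1.49 ± 0.35 SE, adjusted p = 0.0068 by edgeR, higher in 6 of 6 experiments). In PY on day 2 it was 2.80 (1.71 to 4.58, adjusted p = 0.00664, higher in 5 of 5). On day 4 it was 2.34 in P (1.46 to 3.75, adjusted p = 0.0226, 6 of 6) and 2.33 in PY (1.46 to 3.74, adjusted p = 0.0172, 6 of 6).

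Some Col6a3 calls on day 2 did not pass when 1 experiment was left out, while the differences stayed above 1 on the log2 scale. In P the adjusted p was 0.0984 without experiment 5, and the log2 difference was at least 1.30 without any experiment. In PY the adjusted p was 0.172 without experiment 6 and 0.074 without PY day 2 replicate 5, and the log2 difference was at least 1.16 without any experiment and 1.14 without that library; it was 0.0506 in PY in a fit on the PY and EV libraries of day 2 alone. On day 4 the highest adjusted p of Col6a3 in P was 0.124 when an experiment (1, 2 or 3) was left out and 0.0965 when a library was left out (EV day 4 replicates 1, 3, 4 and 5 and P day 4 replicate 2 each ended the call), with log2 differences of at least 1.15 and 1.06. In PY on day 4 it was 0.124 (experiments 1 or 3) and 0.0599 (PY day 4 replicate 2), with log2 differences of at least 1.08 and 1.10, while without PY day 4 replicate 4 the log2 difference was 1.40 with an adjusted p of 0.00364. With the replicate block, leaving out an experiment ended 1 of these 4 calls, PY on day 2 without experiment 6 (adjusted p = 0.0701).

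The other type VI chains moved less between transfections. Col6a1 (ENSMUSG00000001119, chromosome 10, 76708792 to 76726168) was on day 2 at 887.5, 1348 and 1465 CPM in EV (lowest, median, highest), at 1013, 1530 and 2542 CPM in P, and at 963.1, 1519, 1543, 1722 and 2610 CPM in PY. The groups overlapped widely. The fold of P over EV was 1.31 (0.884 to 1.93, adjusted p = 0.853), although P was above EV in 6 of 6 experiments. Col6a2 (ENSMUSG00000020241, chromosome 10, 76595762 to 76623630), its neighbour 85161 bases away on the same strand, was on day 2 at 490.1, 676.3 and 731.4 CPM in EV and at 594.6, 949.5 and 1582 CPM in P. The fold of P over EV for Col6a2 was 1.54 (1.05 to 2.26, adjusted p = 0.405, higher in 6 of 6), and that of PY was 1.62 (1.09 to 2.42, adjusted p = 0.215). On day 4 the folds of P over EV were 1.17 for Col6a1 (adjusted p = 0.851) and 1.30 for Col6a2 (adjusted p = 0.677). All 4 type VI chains tested had a positive log2 difference in both comparisons on days 2 and 4, with 1 of 4, Col6a3, passing each time. The fourth, Col6a6, was at a mean of 0.0261 RPKM.

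The balance of chains within a collagen type was read from the log2 ratio of counts in each library, which does not depend on library scaling. Across 5 chain pairs and 3 days, 0 of 15 exact permutation tests of P against EV passed after Benjamini-Hochberg adjustment. These tests did not pair libraries by experiment, although libraries of 1 experiment deviated together, so the 0 does not show that the ratios were equal. The ratio Col6a3/Col6a1 on day 2 was −1.49 ± 0.50 (SD, n = 6) in P and −2.63 ± 0.64 (n = 6) in EV, a difference of 1.14 (two-sided exact p = 0.013, adjusted 0.065, higher in 6 of 6 experiments). On day 4 it was −1.42 ± 0.54 in P and −2.45 ± 0.49 in EV, a difference of 1.03 (exact p = 0.0108, adjusted 0.065, 6 of 6), and on day 0 the difference was 0.28 (exact p = 0.619, higher in 2 of 4). The ratio Col6a1/Col6a2 on day 2 was 0.72 ± 0.09 in P and 0.93 ± 0.11 in EV, a difference of −0.21 (exact p = 0.00866, adjusted 0.065, lower in 6 of 6). The groups overlapped for each of these ratios, and the smallest p that 6 against 6 libraries allow is 0.00216. The number of ratios that passed was 2 without EV day 2 replicate 4, 1 without EV day 4 replicate 2 and 4 without P day 4 replicate 1. For Col1a1/Col1a2, the type I pair, the day 4 ratio was −1.27 ± 0.31 in P and −1.08 ± 0.26 in EV (exact p = 0.277, adjusted 0.693).

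**Figure D2:**
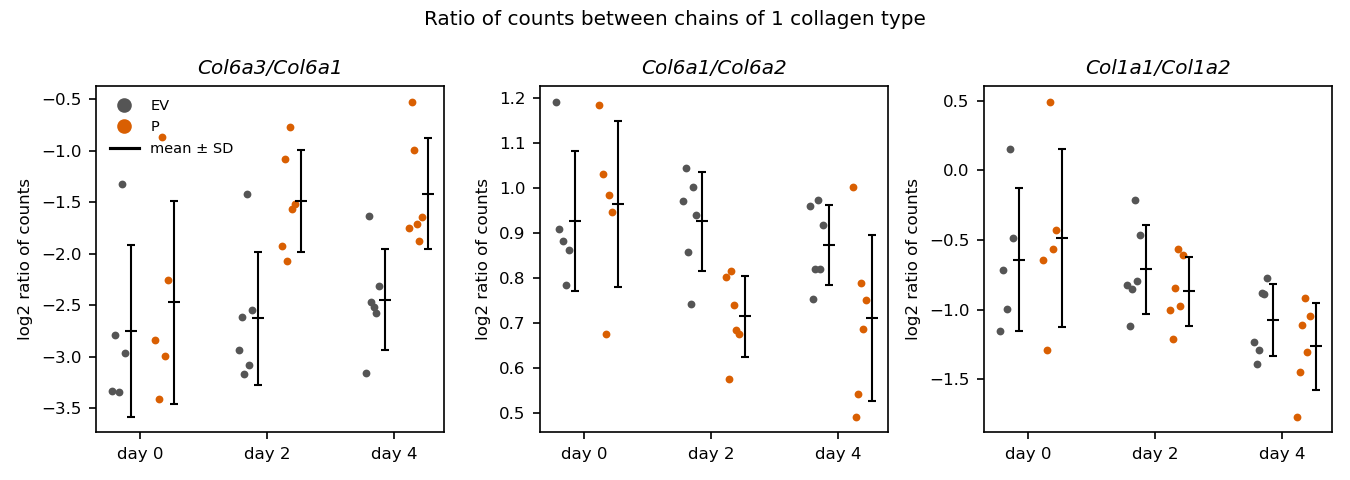
Log2 ratio of counts between chains of 1 collagen type in EV and P libraries by day, with 1 point per library and the mean ± SD. The Col6a3/Col6a1 ratio of P is 1.14 above EV on day 2 and 1.03 above on day 4, with overlapping points.

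Col15a1 encodes the chain of type XV collagen, which lies between basement membranes and the fibrils beside them. Col15a1 (ENSMUSG00000028339, chromosome 4, 47208161 to 47313167, plus strand) showed the largest differences from EV of the 37 collagens tested on days 2 and 4. In EV it was at 2.10, 3.45, 6.30, 7.56 and 8.32 CPM on day 0, and its lowest, median and highest CPM were 7.69, 14.4 and 19.2 on day 2 and 9.33, 52.6 and 100.2 on day 4. In P it was at 1.31, 3.04, 3.72, 5.03 and 6.83 CPM on day 0, at 18.4, 76.3 and 173.7 CPM on day 2 and at 51.7, 190.0 and 361.9 CPM on day 4. In PY it was at 1.40, 4.46 and 12.6 CPM on day 0, at 20.2, 53.9, 92.9, 157.3 and 225.4 CPM on day 2 and at 14.7, 284.2 and 349.6 CPM on day 4. On day 2 all PY libraries were above all EV libraries and P overlapped EV slightly; on day 4, PY day 4 replicate 4, at 14.7 CPM, was the only PY library within the EV range, since the other 5 were at 233 CPM or more. The libraries of experiment 4 were also the lowest of their groups in EV, at 9.33 CPM against 40.2 to 100 CPM, and in P, at 51.7 CPM against 164 to 362 CPM. The fold over EV on day 2 was 5.81 in P (95% interval 2.65 to 12.7, log2 2.54 ± 0.58 SE, adjusted p = 0.00495 by edgeR, higher in 6 of 6 experiments). In PY it was 8.08 (3.57 to 18.3, adjusted p = 0.000641, higher in 5 of 5). On day 4 it was 3.82 in P (1.78 to 8.2, adjusted p = 0.0273, 6 of 6) and 4.55 in PY (2.11 to 9.83, adjusted p = 0.00743, 6 of 6). Within experiments the day 2 fold of P over EV ran from 1.28 in experiment 3 to 17.3 in experiment 5, and the day 4 fold from 2.56 to 6.56.

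The Col15a1 call for P on day 2 was lost without experiment 5 (adjusted p = 0.13), with a log2 difference of at least 2.07 without any experiment. For P on day 4 it was lost without any experiment other than 4 (up to 0.114) and without each of EV day 4 replicates 3 to 6 and P day 4 replicates 2 and 5 (up to 0.101), with log2 differences of at least 1.81 and 1.69. The Col15a1 calls for PY held without each library and each experiment, up to an adjusted p of 0.0451, and without PY day 4 replicate 4 the day 4 log2 difference was 2.44 (adjusted p = 0.000773); fitted on the PY and EV libraries of day 4 alone, the adjusted p was 0.0522. With the replicate block all 4 calls held without any experiment. The fat cell markers were also higher in P and PY on day 2, with a median sum of 105 CPM in EV, 4240 CPM in P and 6510 CPM in PY. The library of lowest Col15a1 in PY on day 4 also had the lowest sum. The sum did not follow Col15a1 throughout. From day 2 to day 4 in EV it fell in experiments 4, 5 and 6, while Col15a1 rose in every experiment. The part of the fat cell markers in the result was not tested.

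**Figure D3:**
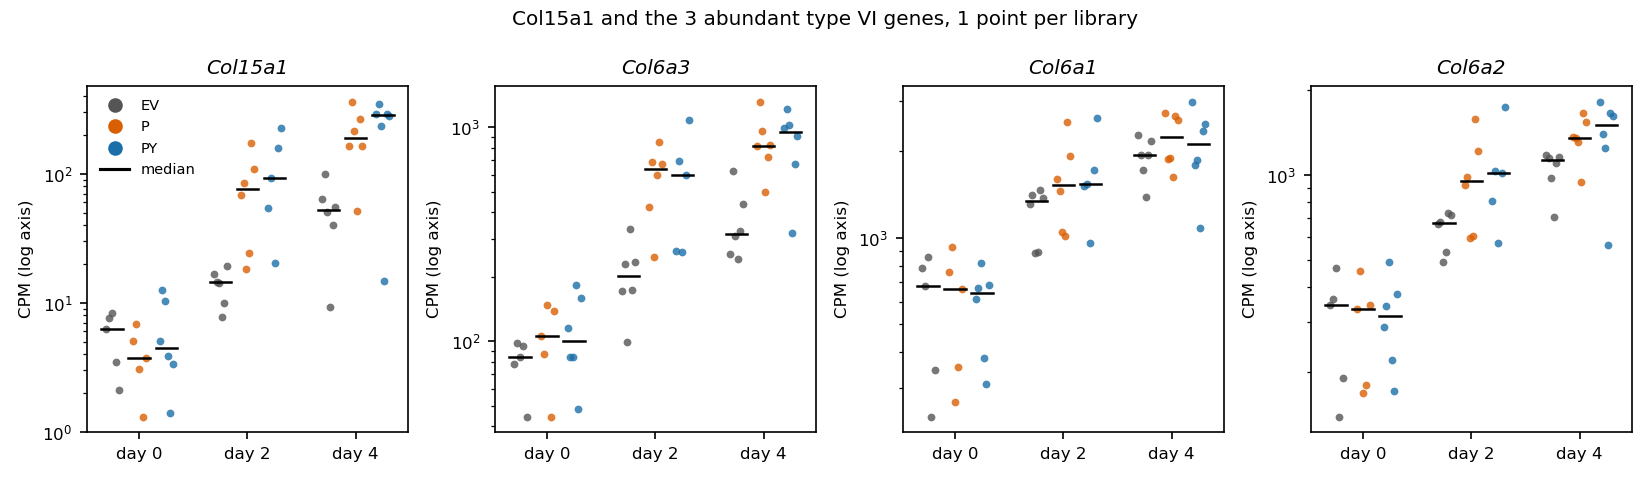
CPM of Col15a1, Col6a3, Col6a1 and Col6a2 on log axes by day, with 1 point per library and a bar at the median, for EV, P and PY. For Col15a1 on day 2 the medians are 14.4 in EV, 76.3 in P and 92.9 in PY; the 3 type VI panels show higher levels on day 4 than on day 0 in every group.

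Col15a1 and Col6a3 were the only 2 of the 37 collagens called in each of these comparisons without the block. The 2 of 37 stand beside 2.78% of all genes higher in P on day 2, 4.34% in PY on day 2, 5.18% in P on day 4 and 7.03% in PY on day 4, so the share of collagens called, 5.41%, was near the share of all genes. The median log2 difference of the 37 collagens was −0.16 in P and −0.13 in PY on day 2, and −0.27 in both on day 4, against −0.06 and −0.05 over all genes on day 4. On day 4 the log2 difference was negative for 27 of 37 collagens in P and 26 in PY, whether or not it passed, against 59.7% and 57.4% of all genes; the collagen counts were the same with RLE and upper quartile scaling. Once the experiment was a replicate block, P on day 2 had 2 collagens higher, where 4.65% of all genes passed, and 1 lower, where 0.835% passed. PY on day 2 had 2 higher (6.82% of all genes) and 6 lower (3.38%). P on day 4 had 3 higher (7.92%) and 3 lower (2.21%), and PY on day 4 had 3 higher (10.3%) and 4 lower (5.57%). Without PY day 4 replicate 4, PY on day 4 had 2 collagens higher and 1 lower without the block, the latter Col18a1. Of all 16988 genes tested in that fit, 1374 were higher and 229 lower. With the block PY on day 4 had 4 collagens higher and 6 lower, beside 1925 and 1119 of all genes. The blocked fit without that library added Col11a2 (0.67, adjusted p = 0.033 by edgeR) among the higher genes and Col18a1 (−0.50, 0.0119), Col4a5 (−0.34, 0.0271) and Col5a2 (−0.39, 0.028) among the lower, as log2 differences, and Col5a1 no longer passed.

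The chains called lower, in the model with the block only, were mostly fibrillar. Col1a1 (ENSMUSG00000001506, chromosome 11, 94936224 to 94953042) encodes the alpha 1 chain of type I collagen, the main fibril protein, and had lower values in P and PY on days 2 and 4. In EV the lowest, median and highest CPM of Col1a1 were 1578, 3218 and 4427 on day 2 and 1559, 3000 and 4232 on day 4. In P they were 1137, 2086 and 3156 on day 2 and 1007, 1648 and 2916 on day 4. In PY the day 2 libraries were at 1127, 1132, 1254, 1446 and 2590 CPM, and on day 4 the values were 980.7, 1509 and 2130. All groups overlapped EV, with 4 of the 5 PY libraries of day 2 below every EV library. Without the block Col1a1 did not pass: the log2 difference was −0.53 in P and −0.98 in PY on day 2 (adjusted p = 0.678 and 0.0805 by edgeR), and −0.60 and −0.87 on day 4 (0.422 and 0.085). In the fit with the replicate block, Col1a1 fell in P by 0.51 on the log2 scale on day 2 (adjusted p = 0.0402, lower in 6 of 6 experiments) and by 0.60 on day 4 (0.00702, 5 of 6). In PY it fell by 0.85 on day 2 (0.000407, 5 of 5) and by 0.83 on day 4 (0.000108, 6 of 6). Leaving out an experiment from the blocked fit ended the Col1a1 call in P on day 2 (all but experiment 3, up to 0.226) and on day 4 (experiment 5, 0.121), and neither call in PY (up to 0.0216). Without PY day 4 replicate 4 the day 4 difference of Col1a1 in PY was −0.81 with the block (0.000313) and −0.97 without it (0.0516).

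Col1a2 (ENSMUSG00000029661, chromosome 6, 4504814 to 4541544), the other type I chain, was on day 4 at 3819, 6146 and 7232 CPM in EV, at 2745, 4196 and 6010 CPM in P and at 2591, 4200 and 4691 CPM in PY. The groups overlapped, and both P and PY were below EV in 6 of 6 experiments. With the block, Col1a2 fell on day 4 by 0.41 in P (adjusted p = 0.0164 by edgeR) and by 0.55 in PY (0.00064), and on day 2 by 0.47 in PY (0.0105); without it the adjusted p-values were 0.364, 0.0833 and 0.237. The Col1a2 call was lost for P on day 4 without experiment 1, 2 or 5 (up to 0.153) and for PY on day 2 without experiment 5 (0.153). Without PY day 4 replicate 4 the day 4 difference of Col1a2 in PY was −0.60 with the block (0.000331) and −0.60 without it (0.0571). Col3a1, the type III chain that joins type I in fibrils, did not pass in any comparison with EV: on day 4 it was at 3115, 4629 and 7477 CPM in EV, at 2698, 3574 and 6337 CPM in P and at 1877, 3448 and 5950 CPM in PY. Its lowest library on day 0 was that of experiment 4 in each transfection, at 400, 301.2 and 498.7 CPM.

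The type V chains, which start fibrils and set their width, passed in PY alone and with the block alone. Col5a1 was on day 2 at 609.2, 1062 and 1395 CPM in EV and at 544.5, 569.9, 620.8, 699.3 and 1015 CPM in PY, and fell by 0.47 (adjusted p = 0.0247 by edgeR with the block, 0.184 without). On day 4 Col5a1 fell by 0.38 in PY (0.0468 with the block, 0.335 without). Col5a2 was on day 2 at 863.8, 1582 and 1986 CPM in EV and at 708.9, 852.7, 901.2, 1262 and 1508 CPM in PY, and fell by 0.43 (0.032 with the block, 0.398 without). EV and PY overlapped for both. These calls were lost without experiment 1, 5 or 6 for Col5a1 on day 2 (up to 0.255), without any but experiment 1 (up to 0.228) or without PY day 4 replicate 4 (0.066) on day 4, and without experiment 1, 3, 5 or 6 for Col5a2 (up to 0.201). Over the 10 fibrillar chains tested, the log2 difference on day 4 was negative for 9 in P and 8 in PY, with medians of −0.27 and −0.36; without PY day 4 replicate 4 it was negative for 7 in PY, with a median of −0.38.

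Several marker lists of other cell states also had lower sums in P and PY than in EV on day 4 in most experiments. The smooth muscle sum was mostly Acta2 and the preadipocyte and fibroblast sum mostly Vim, as given above. The preadipocyte and fibroblast markers had a median sum on day 4 of 8290 CPM in EV, 6360 CPM in P and 6210 CPM in PY, with overlapping ranges. Within experiments, the sum of these markers over the EV sum was 0.675 to 0.966 in P and 0.621 to 0.971 in PY on day 4. The cartilage markers, whose sum was mostly Sox9 (median 97.2 CPM), were at 0.53 to 0.894 of EV in PY and 0.537 to 1.02 in P on that day. The bone markers, whose sum was mostly Runx2 (median 29.2 CPM) and Phex (15.1 CPM), were then at 0.623 to 1.11 of EV in P and 0.711 to 1.21 in PY. The endothelial markers, whose sum was mostly Tek (median 22.8 CPM), were at 0.754 to 0.944 of EV in P and 0.401 to 1.01 in PY on day 4. The smooth muscle markers differed more between experiments than between transfections, so they are given within experiments: on day 2 the P sum was 0.497 to 0.889 of the EV sum in 6 experiments, and the PY sum was 0.193, 0.568, 0.914, 0.581 and 0.537 of it in experiments 1, 2, 3, 5 and 6. On day 4 the smooth muscle sum was 0.575 to 0.741 of the EV sum in P and 0.499 to 0.752 of it in PY. None of these smooth muscle markers passed by edgeR on day 2 in P or PY, with or without the block. Their part in the result was not tested.

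**Figure D4:**
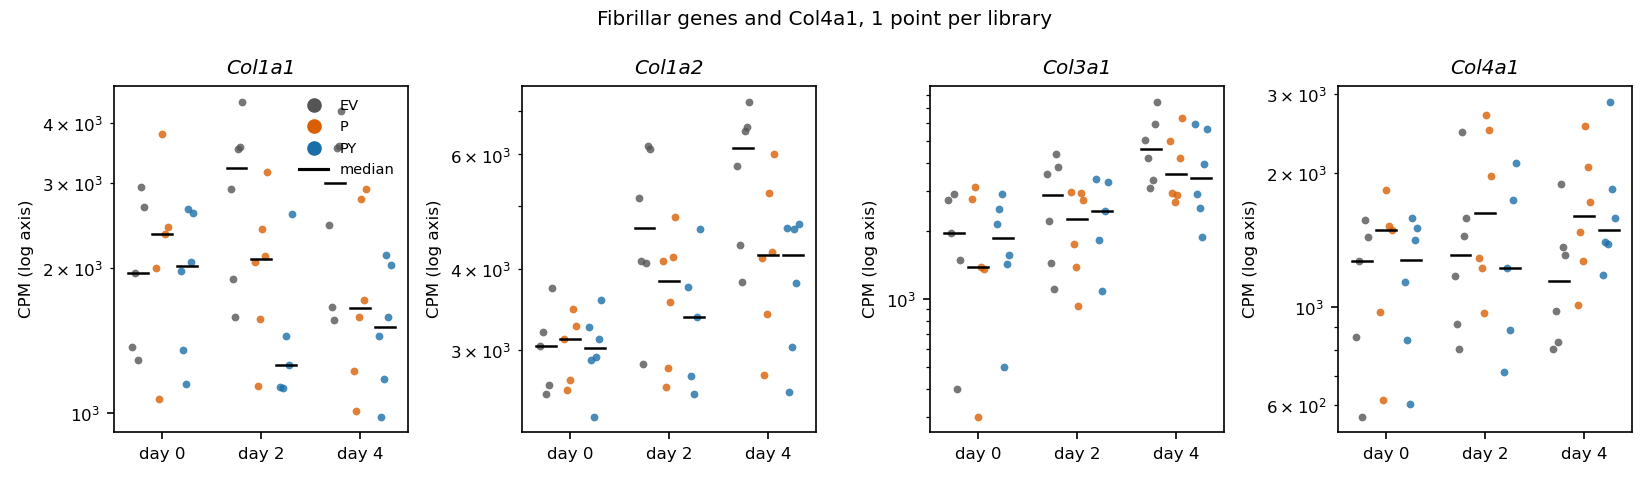
CPM of Col1a1, Col1a2, Col3a1 and Col4a1 on log axes by day, with 1 point per library and a bar at the median, for EV, P and PY. The day 4 medians of Col1a1 are 3000 in EV, 1648 in P and 1509 in PY, and those of Col4a1 are 1142, 1594 and 1490.

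Among basement membrane chains, Col4a1, which with Col4a2 makes up the common form of type IV, was the third collagen called higher on day 4, with the block only. Col4a1 (ENSMUSG00000031502, chromosome 8, 11198423 to 11312826) was on day 4 at 801.4, 1142 and 1888 CPM in EV, at 1008, 1594 and 2548 CPM in P and at 1177, 1490 and 2885 CPM in PY. The groups overlapped, and P and PY were each above EV in 6 of 6 experiments. Col4a1 rose over EV by 0.50 on the log2 scale in P (adjusted p = 0.0139 by edgeR with the block, 0.593 without) and by 0.54 in PY (0.00536 with the block, 0.437 without). The P call was lost without experiment 2 or 5 (up to 0.0726), and the PY call was not lost without any experiment, nor without PY day 4 replicate 4 (0.51, 0.0119 with the block; 0.31, 0.659 without). Col4a2, which shares 22 bases at its start with the oppositely directed Col4a1 so that reads there cannot be assigned without strand, was on day 4 at 372.1, 581.0 and 734.5 CPM in EV and at 362.7, 749.0 and 976.4 CPM in P. Its blocked log2 differences from EV were 0.34 in P and 0.34 in PY (adjusted p = 0.149 and 0.108). Col4a5 was on day 2 at 128.6, 144.8 and 191 CPM in EV and at 97.8, 103.7, 108.4, 120.6 and 136.1 CPM in PY, overlapping in part. Col4a5 fell by 0.34 with the block (adjusted p = 0.044, 0.138 without, lower in 4 of 5 experiments), a call lost without experiment 1, 3, 5 or 6 (up to 0.292). The remaining type IV chains, Col4a3, Col4a4 and Col4a6, were under 0.1 RPKM and did not pass in any comparison with EV.

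Col18a1, the second multiplexin and the source of endostatin, was lower in PY on day 2. It was at 41.1, 50.5 and 90.5 CPM in EV and at 25.2, 33.0, 35.5, 36.8 and 54.4 CPM in PY, with 4 of the 5 PY libraries below every EV library. Col18a1 fell by 0.50 (adjusted p = 0.0378 by edgeR with the block, 0.13 without, lower in 4 of 5 experiments), a call lost without experiment 1, 3 or 5 (up to 0.232). In PY on day 4 its highest library was replicate 4, at 88.1 CPM against 32.2 to 45.4 CPM in the others. Without that library Col18a1 was lower in PY than in EV on day 4 by a log2 difference of −0.60 (adjusted p = 0.0429 without the block).

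Of the FACIT chains, Col16a1 passed. It was on day 4 at 131.6, 211.4 and 265.7 CPM in EV, at 83.8, 139.6 and 198.9 CPM in P and at 79.8, 150 and 217.2 CPM in PY, with overlap and with both below EV in 6 of 6 experiments. Col16a1 fell by 0.52 in P (adjusted p = 0.0262 by edgeR with the block, 0.33 without) and by 0.47 in PY (0.0376 with the block, 0.358 without). The calls were each lost without 4 of 6 experiments (1, 2, 5 or 6 in P and 2, 3, 5 or 6 in PY, up to 0.0906 and 0.186), and without PY day 4 replicate 4 the Col16a1 difference in PY was −0.51 (0.0255 with the block). Col12a1, the most abundant FACIT chain, was on day 4 at 534.1, 1034 and 1609 CPM in EV and at 391.3, 818.8 and 2081 CPM in P, and did not pass. All 7 FACIT chains tested had a negative log2 difference on day 4, with medians of −0.27 in P and −0.43 in PY (−0.45 without PY day 4 replicate 4). So did the 3 type VIII and X chains, with medians of −0.59 and −0.70; Col8a2 was at 21.5, 42.2 and 150.3 CPM in EV and at 16.4, 34.2 and 83.6 CPM in P on that day, and 0 of the 3 passed. The transmembrane Col23a1 was at 6.83, 30.4 and 80.5 CPM in EV and at 7.57, 30.3 and 57.0 CPM in P on day 4, and Col28a1 at 24.7, 40.6 and 56.8 CPM in EV and at 22.8, 42.9 and 68.1 CPM in P; neither passed.

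**Figure D5:**
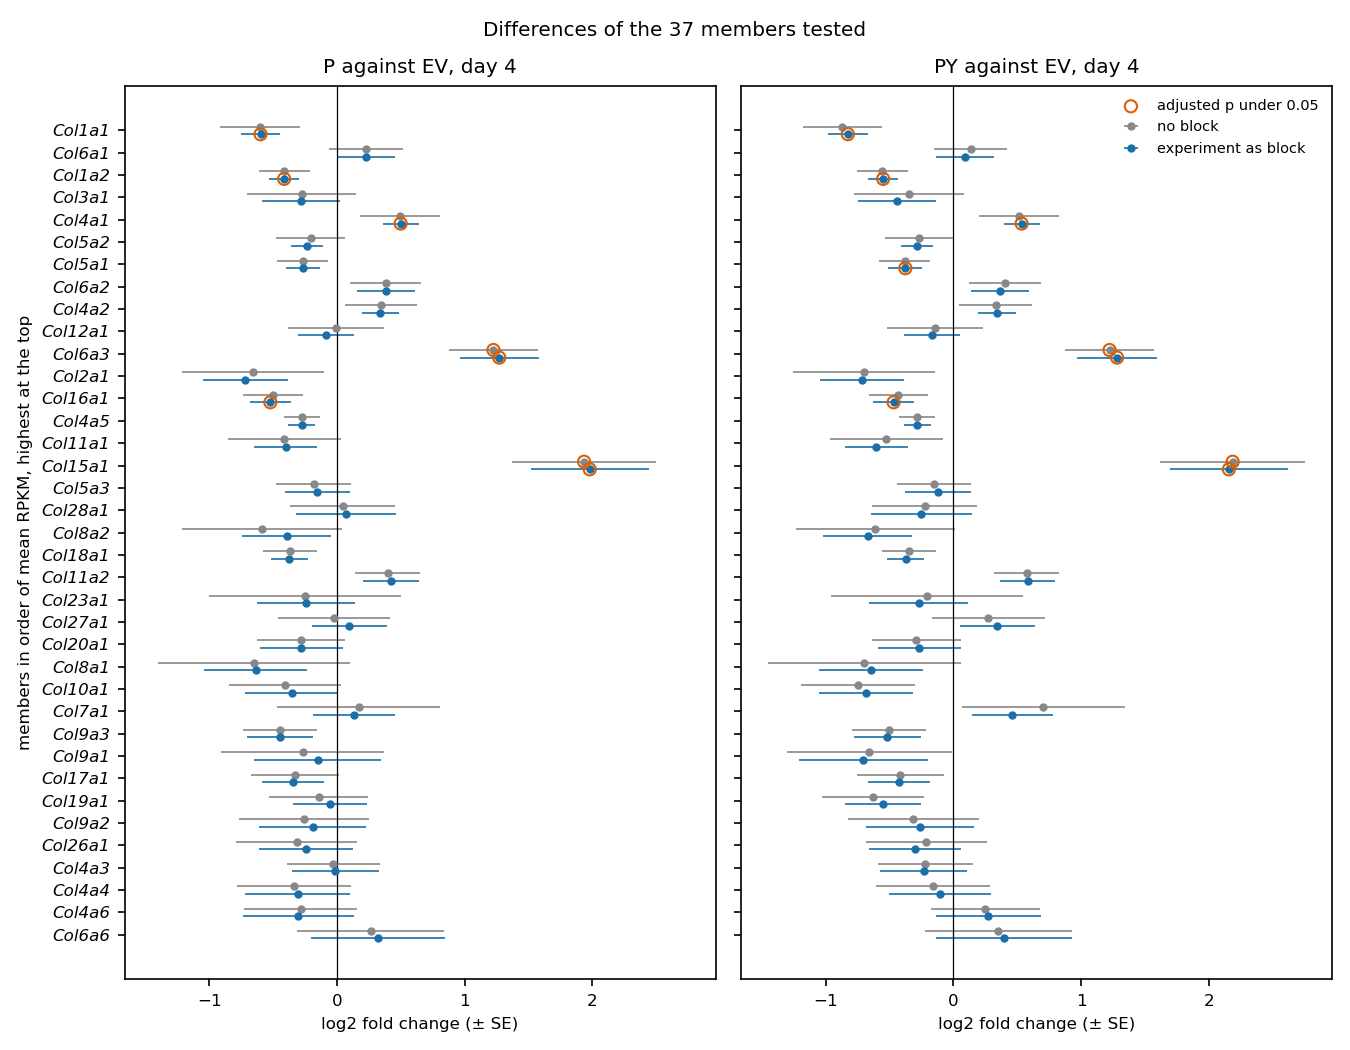
Log2 fold change ± SE from EV on day 4 for the 37 collagen genes tested, in P (left) and PY (right), without a block in grey and with the experiment as block in blue; orange rings mark an adjusted p under 0.05. Rings without the block mark Col15a1 and Col6a3 alone, and the blocked fit adds Col4a1 to the right of 0 and Col1a1, Col1a2 and Col16a1 to the left in both panels, with Col5a1 in PY.

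Adding the Ybx1 guide to the Pparg guide gave no collagen call. PY against P called 0 of 37 on day 0 (0.0294% of all genes passed), 0 on day 2 (0.0118%) and 0 on day 4 (0.0176%), and at an unadjusted p under 0.05 there were 0 on each day by edgeR. In the blocked fit there were 0 calls on each day and 1, 1 and 0 genes at an unadjusted p under 0.05, and DESeq2 called 0. The fold of PY over P for Col15a1 was 1.39 on day 2 (95% interval 0.643 to 3.01) and 1.19 on day 4 (0.57 to 2.49). For Col6a3 it was 0.998 (0.612 to 1.63) and 0.999 (0.627 to 1.59). The interval for Col1a1 on day 2 was 0.467 to 1.14 around 0.728, with PY below P in 5 of 5 experiments. Without PY day 4 replicate 4 the count on day 4 was again 0, with and without the block, and the folds were 1.41 for Col15a1 and 1.12 for Col6a3. The intervals above allow differences of 1.5 times or more.

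The type VI chains also rose with time in the control cells. From day 0 to day 2 in EV, Col6a3 rose 2.58-fold (95% interval 1.56 to 4.28, adjusted p = 0.0171 by edgeR), Col6a2 2.13-fold (1.41 to 3.2, 0.0195) and Col6a1 2.11-fold (1.39 to 3.2, 0.0239), each higher in 5 of 5 experiments. Col6a1 was then at 238.7, 345.8, 678.7, 788.9 and 856.8 CPM in EV on day 0, below every EV library of day 2, and Col6a2 was at 138.5, 190.1, 345.3, 361.7 and 464.9 CPM, likewise below. In P the rise was 5.54-fold for Col6a3 (3.27 to 9.38, adjusted p = 2.29e-05), 3.32-fold for Col6a2 (0.000121) and 2.69-fold for Col6a1 (0.00133). In PY it was 5.15-fold for Col6a3 (3.12 to 8.52, 1.01e-05), 3.29-fold for Col6a2 (4.3e-05) and 2.88-fold for Col6a1 (0.000259). The EV calls were lost without experiment 1, 2 or 5 for all 3 genes (also 6 for Col6a1; up to 0.163), and without EV day 0 replicate 5 (also replicate 4 for Col6a1 and Col6a2; up to 0.0956), and in EV libraries of days 0 and 2 alone Col6a1 stood at 0.067; with the block none was lost. The P and PY calls held without each library and each experiment.

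Col15a1 rose 19.9-fold from day 0 to day 2 in P (95% interval 7.91 to 50.3, adjusted p = 2.38e-05 by edgeR, 5 of 5 experiments) and 18.9-fold in PY (7.89 to 45.4, 6.47e-06, 5 of 5). In EV the Col15a1 fold was 2.54 from day 0 to day 2 (adjusted p = 0.184) and 3.88 from day 2 to day 4 (0.116, 6 of 6 experiments); with the replicate block the later step passed at 0.00695, and at 0.0509 without experiment 2. The test of whether the difference of P from EV itself changed from day 0 did not pass for any collagen: 0 of 37 on day 2, where 0.0588% of all genes passed, and 0 of 37 on day 4, where 0.288% passed. At an unadjusted p under 0.05 there were 3 and 1 collagens by edgeR, beside 3.2% and 6.05% of all genes (with the block 2 and 5, beside 5.56% and 11.7%), and DESeq2 called 0. For Col15a1 the log2 change was 2.98 ± 0.86 to day 2 (adjusted p = 0.349) and 2.37 to day 4 (0.307), and for Col6a3 it was 1.10 to day 2 (adjusted p = 1).

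From day 0 to day 2, the counts called were 4 of 37 higher in EV (2.87% of all genes), 4 higher (6.99%) and 1 lower (6.98%) in P, and 5 higher in PY (11.4%). The fourth in EV was Col4a5, at 85.7, 85.9, 113.2, 115.1 and 133.4 CPM on day 0 and 128.6 to 191 CPM on day 2, a rise of 1.40-fold (adjusted p = 0.036) that was lost without any experiment but 4 (up to 0.208) and without each of 6 of 11 libraries (EV day 0 replicates 1, 2 and 4 and EV day 2 replicates 1, 5 and 6; up to 0.12), and that stood at 0.0576 in those libraries alone and at 0.105 with no filter on low counts. The gene that fell in P was Col4a6, a scarce type IV chain, from 0.253, 0.274, 0.567, 0.805 and 0.907 CPM to a median of 0.180 CPM (2.87-fold lower, adjusted p = 0.011; 0.0683 at most without experiment 1, 3 or 6). The fifth in PY was Col26a1, from a median of 0.0614 CPM to 0.0, 0.107, 0.331, 0.381 and 0.516 CPM (3.69-fold, adjusted p = 0.0437), lost without experiment 1, 2, 5 or 6 (up to 0.208) and without each of 8 of 11 libraries (up to 0.141), and at 0.0907 with no filter. In the blocked fit, EV had 6 higher (10.2% of all genes) and 1 lower (11.8%), P 7 higher (13.9%) and 1 lower (14.7%), and PY 7 higher (17.3%) and 1 lower (18.3%). The calls that the block added were Col1a2 (0.53, adjusted p = 0.00175) and Col11a1 (0.71, 0.0494) higher and Col11a2 (−0.72, 0.0182) lower in EV, Col12a1 (0.84, 0.00543), Col4a2 (0.52, 0.00915) and Col4a1 (0.51, 0.00785) higher in P, and Col12a1 (0.64, 0.0261) and Col4a2 (0.45, 0.0195) higher and Col5a2 (−0.34, 0.0412) lower in PY, as log2 changes. Of these, Col1a2 in EV and Col12a1 in P held without each experiment.

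From day 2 to day 4, only Col26a1, the chain of the little-studied type XXVI collagen, passed without the block. Its counts were few, 0 to 20 per library on day 2 and 6 to 58 on day 4 in EV and P. It went from 0.0, 0.170 and 0.360 CPM (lowest, median, highest) to 0.574, 1.21 and 1.93 CPM in EV, with no overlap, and from 0.0351, 0.230 and 0.426 CPM to 0.363, 1.01 and 1.58 CPM in P. The folds of Col26a1 were 7.03 in EV (95% interval 3.36 to 14.7, adjusted p = 0.0382 by edgeR) and 4.11 in P (2 to 8.45, 0.0402), each in 6 of 6 experiments. Both were lost without any experiment but 4 (up to 0.183) and without 8 and 9 of 12 single libraries (up to 0.142 and 0.122), and stood at 0.0765 and 0.0859 in the compared groups alone (0.0764 in P with no filter), while with the block they stood at 5.82e-05 and 0.000587 and held without each experiment. The count was thus 1 of 37 higher in EV (0.0294% of all genes), 1 in P (0.552%) and 0 in PY (0.0%), where 2 had an unadjusted p under 0.05 and DESeq2 called 0.

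Day 4 against day 2 in the blocked fit had 9 higher (10.4% of all genes) and 2 lower (9.74%) in EV. It had 6 higher (9.94%) and 1 lower (10.2%) in P, and 3 higher (2.6%) in PY. Without PY day 4 replicate 4 the counts in PY were 5 higher and 1 lower. The share of all genes in that fit is not given here, so this change is not a result about collagens alone. Col23a1, a transmembrane chain, changed most beside Col26a1: in EV it went from 1.57, 8.93 and 16.0 CPM to 6.83, 30.4 and 80.5 CPM, overlapping in part, a log2 rise of 2.19 (adjusted p = 0.000379 with the block, 0.184 without). Its rise was 2.05 in P (0.000489) and 1.54 in PY (0.0223), and the PY call was lost without experiment 2, 5 or 6 (up to 0.109). In EV, Col15a1 (1.77, adjusted p = 0.00695) and Col9a2 (1.43, 0.0214) came next, and the lower genes were Col7a1 (−1.03, 0.0161) and Col2a1 (−0.99, 0.0303). In P, Col9a1 (1.44, 0.0454) and Col15a1 (1.32, 0.035) came next and Col2a1 (−1.19, 0.0106) was lower. In PY, Col27a1 (1.03, 0.0462) was the third, beside Col26a1 (1.92, 0.00648). Leaving out 1 experiment ended each of these blocked calls except Col26a1 in EV and P and Col23a1 in EV and P.

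Collagen chains are hydroxylated, folded, trimmed and crosslinked by other proteins, and 33 of the 35 genes listed for these steps were tested. The median log2 difference from EV was −0.25 in P and −0.37 in PY on day 4, where 3 and 2 of the 33 were positive. Without the block 1 gene passed in P on day 4, P4ha2, a prolyl hydroxylase (−0.47, adjusted p = 0.0392 by edgeR). In PY, P4ha3, another prolyl hydroxylase, fell on day 2 (−0.78, 0.0499) and on day 4 (−0.79, 0.0186), where Pcolce, an enhancer of propeptide removal (−0.60, 0.0339), and P4ha2 (−0.45, 0.0383) fell too. Of all genes, 0.2% fell in P on day 4, and 0.394% and 0.793% fell in PY on days 2 and 4. Blocked, 0 rose in any of the 4 comparisons, and the number that fell was 3 in P (0.835% of all genes fell) and 10 in PY (3.38%) on day 2, and 8 in P (2.21%) and 15 in PY (5.57%) on day 4. Without PY day 4 replicate 4 the number in PY on day 4 was 17, where 1119 of all 16988 genes fell. Without the block as well it was 8, where 229 of all genes fell, with P4ha2, P4ha3 and Pcolce among the 8. In P on day 2 these were Adamts2, a propeptide protease (−0.55, 0.00651), Loxl3, a crosslinking enzyme (−0.63, 0.0364), and Bmp1 (−0.35, 0.0366), and on day 4 P4ha2 (−0.48, 0.00402), Adamts14 (−0.67, 0.00458), Bmp1 (−0.41, 0.00719) and Fkbp10 (−0.34, 0.00975) led. In PY on day 2 Bmp1 (−0.50, 0.00225), Loxl3 (−0.75, 0.0112), the lysyl hydroxylase Plod1 (−0.27, 0.0126) and P4ha3 (−0.78, 0.0127) led. Those of smallest adjusted p in PY on day 4 were Bmp1, another propeptide protease (−0.52, 0.000334), Fkbp10, a chaperone (−0.43, 0.000471), Colgalt1, which adds galactose (−0.31, 0.00139), and P3h1, another hydroxylase (−0.36, 0.00247).

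Of 17 genes for collagen breakdown and its inhibitors, 14 were tested. Mmp15, a membrane-bound protease, rose on day 2 in P (1.78-fold, adjusted p = 0.0301 by edgeR) and in PY (1.76-fold, 0.0356). On day 4 in PY the protease Mmp14 (−0.52, 0.0456) and the inhibitor Timp2 (−0.53, 0.0403) fell, and 0 of the 14 passed in P. Of all genes, 2.78% rose in P and 4.34% in PY on day 2, and 0.793% fell in PY on day 4. Without PY day 4 replicate 4 neither Mmp14 nor Timp2 passed in PY without the block (adjusted p = 0.137 for each). With the replicate block 4 of 14 fell on day 4 in P (2.21% of all genes) and 4 of 14 in PY (5.57%), each also without PY day 4 replicate 4, namely Mrc2, an uptake receptor for collagen (−0.47, 0.0121 in P and −0.63, 0.000355 in PY), Mmp14 (−0.38, 0.0236 and −0.52, 0.000807), Timp2 (−0.42, 0.0206 and −0.54, 0.00152) and the gelatinase Mmp2 (−0.41, 0.0457 and −0.60, 0.00156). Without PY day 4 replicate 4 the blocked fit called 5 of 14 lower and 1 higher in PY on day 4, beside 1119 and 1925 of all 16988 genes. Besides those 4, Timp1 fell (−0.88, adjusted p = 0.0211 by edgeR) and Ctsb rose (0.37, 0.00974). On day 2 with the block, Mmp2 fell in P (−0.44, 0.0495), and Mmp14 (−0.43, 0.0163), Mrc2 (−0.45, 0.0258), Mmp2 (−0.48, 0.0291) and the inhibitor Timp1 (−0.89, 0.0403) fell in PY. Mmp13 was also called higher in PY on day 2 with the block (adjusted p = 0.0208), on 0 to 6 counts per library. Of 11 collagen receptors, 9 were tested and 0 passed without the block in P or PY on days 2 and 4. Of all genes, 2.84% passed in P and 4.74% in PY on day 2, and 5.38% and 7.83% on day 4. With the block, Itga11, an integrin chain for fibrillar collagen, fell in PY on day 2 (−1.59, adjusted p = 0.0242 by edgeR), where 3.38% of all genes fell. Antxr1, which binds type VI collagen among others, fell in PY on day 4 (−0.45, 0.00368), where 5.57% of all genes fell. Without PY day 4 replicate 4 the blocked fit called 2 of 9 lower, beside 1119 of all 16988 genes. These were Antxr1 (−0.43, 0.0117) and Antxr2 (−0.28, 0.0409).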

How the data were processed

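RNA was purified on columns with DNase treatment, and libraries were made with a stranded total RNA kit after ribosomal RNA removal, per the labels' protocols. The deposited table holds counts per gene; STAR 2.5.3a, featureCounts 1.5.2, edgeR 3.22.0 and build mm10 are named per the submitters' processing notes. The annotation release, strand setting and treatment of reads with several matches are not given in the sources used here.

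All else was computed from those counts. Gene symbols and exon lengths came from GENCODE M21 (53706 of 53801 genes matched). CPM used TMM-scaled totals of the genes kept, and RPKM divided CPM by union exon length, which ignores isoforms. Genes were filtered with filterByExpr and fitted with edgeR 4.0.16 (R 4.3.3) as 9 group means by the quasi-likelihood test, two-sided, with Benjamini-Hochberg adjustment over 17015 genes at 0.05; 95% intervals were derived from its F statistic. The procedure was tested on simulated data. DESeq2 1.42.0, other scalings and filters, and leaving out libraries or experiments were alternatives. Chain ratios used 0.5 added counts and exact permutation tests. P-values set a difference against the spread between these libraries. Without the block that spread took no account of the experiment. Total counts set the precision, from 3381870 to 114566739.

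The labels number the experiments, and libraries of 1 experiment deviated together: the median correlation of deviations from group means was 0.364 for pairs of the same experiment and −0.0886 for other pairs, and 47 of 51 libraries correlated best with their own experiment. A second fit therefore has the experiment as a replicate block. Experiment numbers, not replicate numbers, were used, since they differ in P day 0 and PY day 2.

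The gene rule and the lists of markers and of collagen-related genes were chosen with earlier results of these data known. Named were members that passed in any comparison of transfections, the highest per class, between days the 4 of largest change per direction, and of the other lists at most 4 per direction and day.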

Additional observations from a re-analysis of the deposited data

Results flagged for a closer look

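For 10 collagen genes, each group of libraries was searched for a highest or lowest library far from the others on the log2 CPM scale, by Dixon's criterion at the 95% level. Of 90 groups tested, 4 held such a library, and chance alone gives about 1 in 20.

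PY day 4 replicate 4, from experiment 4, held 3 of the 4. Its Col15a1 was at 14.7 CPM against 233 to 350 CPM in the other 5 libraries. Its Col18a1 was at 88.1 CPM against 32.2 to 45.4 CPM, and its Col4a5 at 181.0 CPM against 108 to 126 CPM. In the same library the fat cell markers summed to 1460 CPM, against 7230 to 14500 CPM in the others, and the smooth muscle markers to 5410 CPM against 120 to 3140 CPM. The EV and P libraries of experiment 4 on day 4 also had the lowest Col15a1 of their groups (9.33 CPM against 40.2 to 100 CPM, and 51.7 CPM against 164 to 362 CPM), the highest Col18a1 (90.4 and 66.6 CPM) and the highest Col4a5 (208 and 194 CPM), so this order was shared by the libraries of that experiment. The part of the markers in these values was not tested.

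EV day 0 replicate 5 was the fourth, with Col6a3 at 44.4 CPM against 78.2 to 98.2 CPM in the other 4 EV libraries of that day.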

How the results depend on the processing

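Without the replicate block, leaving out a library or an experiment gave 0 to 5 collagen calls for EV from day 0 to day 2, 0 to 3 for EV from day 2 to day 4, 4 to 6 and 0 to 1 for the same steps in P, 4 to 6 and 0 to 2 in PY, 0 to 2 for P against EV on days 2 and 4, 1 to 3 for PY against EV on day 2 and 1 to 4 on day 4. Comparisons on day 0, those of PY with P, and the tests of change stayed at 0, with and without the block. The share of all genes called also moved with the fit: for EV from day 2 to day 4 it was 0.0353% without the block and 20.1% with it. Such shares are not given here for the fits that left out libraries or experiments. A change in these collagen counts is thus not a result about collagens alone. With the replicate block, the counts were 7 and 11 in EV, 8 and 7 in P and 8 and 3 in PY for the 2 steps, 6 for P against EV on day 4, and 8 and 7 for PY against EV on days 2 and 4; leaving out an experiment from this fit gave 5 to 11 and 4 to 9 in EV, 6 to 12 and 3 to 7 in P, 6 to 10 and 0 to 7 in PY, 2 to 4 and 2 to 7 for P against EV on days 2 and 4, and 3 to 9 and 5 to 8 for PY. DESeq2 gave 2 calls for EV from day 2 to day 4. Fits on the compared groups alone gave 0 for that step in EV and in P, and 1 for PY against EV on day 2 and on day 4. With no filter on low counts the step in P gave 0. Without the 2 libraries of lowest total, a choice made after seeing the data, the blocked fit gave 1 for PY from day 2 to day 4, and its calls for Col16a1 in PY on day 4, Col5a1 in PY on day 4, and Col4a5 and Col5a2 in PY on day 2 were lost. Without PY day 4 replicate 4, also a later choice, the blocked fit gave 10 for PY against EV on day 4 and 6 for PY from day 2 to day 4. Leaving out a library gave 0 to 4 chain ratios that passed. Of 2216 values of single genes under the alternatives, 220 fell short of the threshold that the reported value passed. Another 67 passed it where the reported value did not, and 0 turned direction. These genes were chosen because they passed in the reported or the blocked fit, and most alternatives left out 1 library or experiment. A turn of direction was thus unlikely from the start, and the 0 says little about stability. Depth limits the scarce chains most, such as Col26a1, with at most 59 counts in a library.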
